A study of Mus musculus with 6 samples.

Results

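The mRNAs of 10 genes that encode proteins of desmosomes and adherens junctions were examined in the lacrimal glands of mice without and with aquaporin 5. The genes were Dsp, Dsg2, Dsc2, Jup, Pkp2, Pkp3, Ppl, Evpl, Cdh1 and Ctnnb1, chosen by symbol, and all 10 were found among the 22564 genes of the mRNA table. The data were 3 AQP5-/- libraries and 3 AQP5+/+ libraries of lacrimal gland RNA depleted of ribosomal RNA. The AQP5-/- mice were germline knockouts made by CRISPR/Cas9 editing of fertilized eggs, and the AQP5+/+ mice were wild type. The labels give the strain C57BL/6 and an age of 6 months for all of them. The mRNA profile is described as one of 3 mice of each genotype, whose sex is not stated in the sources used here.

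Desmosomes and adherens junctions hold epithelial cells together. In a desmosome, the cadherins desmoglein and desmocollin span the gap between cells, the armadillo proteins plakoglobin and plakophilin bind their tails inside the cell, and desmoplakin ties this plaque to keratin filaments. In an adherens junction, E-cadherin spans the gap, and beta-catenin links it through alpha-catenin to actin. Beta-catenin is also the transcriptional effector of Wnt signalling, and plakoglobin is an armadillo protein common to both junctions. The secretory acini of the lacrimal gland are lined by a single layer of such coupled cells. Desmosomes, tight junctions and intercellular space were among the structures marked in the electron micrographs of the study, which reported a wider gap between AQP5-/- cells. The comparison of the genotypes asked whether the transcripts of these junctions differed when Aqp5 was lost.

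The libraries held between 11244579 and 13723134 estimated fragments in genes. Aqp5, the water channel that was knocked out, stood at 0.378, 0.177 and 0.170 FPKM in the AQP5-/- libraries, against 154, 89.0 and 142 FPKM in the AQP5+/+ libraries, as labelled. FPKM are fragments per kilobase of transcript, scaled to the depth of the library. The mRNAs of the Y-linked genes Ddx3y, Uty, Kdm5d and Eif2s3y summed to 49.7, 58.0 and 52.1 FPKM in the AQP5-/- libraries, against 0.320, 33.0 and 0.185 FPKM in the AQP5+/+ libraries. AQP5+/+ replicate 2 thus stood with the AQP5-/- libraries in this measure, and AQP5+/+ replicates 1 and 3 had next to no Y-linked mRNA. AQP5+/+ replicate 2 also held skeletal muscle mRNA, with 54.0 FPKM over 6 marker genes, against 0.963 to 2.17 FPKM in the AQP5-/- libraries and 1.48 and 1.55 FPKM in the other AQP5+/+ libraries. The 6 markers of epithelium, among them Epcam, summed to 345 to 404 FPKM in the AQP5-/- libraries and 326 to 439 FPKM in the AQP5+/+ libraries. Of 8 markers of stratified epithelium 5 were at 0 in every library, and the 8 summed to at most 0.786 FPKM.

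The levels of the 10 mRNAs spanned more than 2 orders of magnitude on the FPKM scale, which corrects for transcript length. Ctnnb1, encoding beta-catenin, was the most abundant, with a mean of 65.6 FPKM over the 6 libraries. Dsp, encoding desmoplakin, followed with 46.2 FPKM, then Jup, encoding plakoglobin, with 38.0 FPKM, and Cdh1, encoding E-cadherin, with 30.3 FPKM. The desmosomal cadherins came next, Dsg2 at 15.9 FPKM and Dsc2 at 13.1 FPKM. The plakophilins were lower, Pkp3 at 9.08 FPKM and Pkp2 at 7.98 FPKM. The remaining plakins, large scaffold proteins related to desmoplakin, were the lowest, with Ppl, encoding periplakin, at 2.60 FPKM and Evpl, encoding envoplakin, at 0.457 FPKM. Over the 6 libraries, the range of Ctnnb1 lay clear of that of Dsp, the range of Cdh1 clear of that of Dsg2, the range of Pkp2 clear of that of Ppl, and the range of Ppl clear of that of Evpl. The ranges of Dsc2 and Pkp3 met at 10.2 FPKM, and the other neighbours in this order overlapped. Behind these values stood between 6506 and 8801 estimated fragments per library for Dsp, and between 30 and 79 for Evpl, so that Evpl was the least precise.

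**Figure D1:**
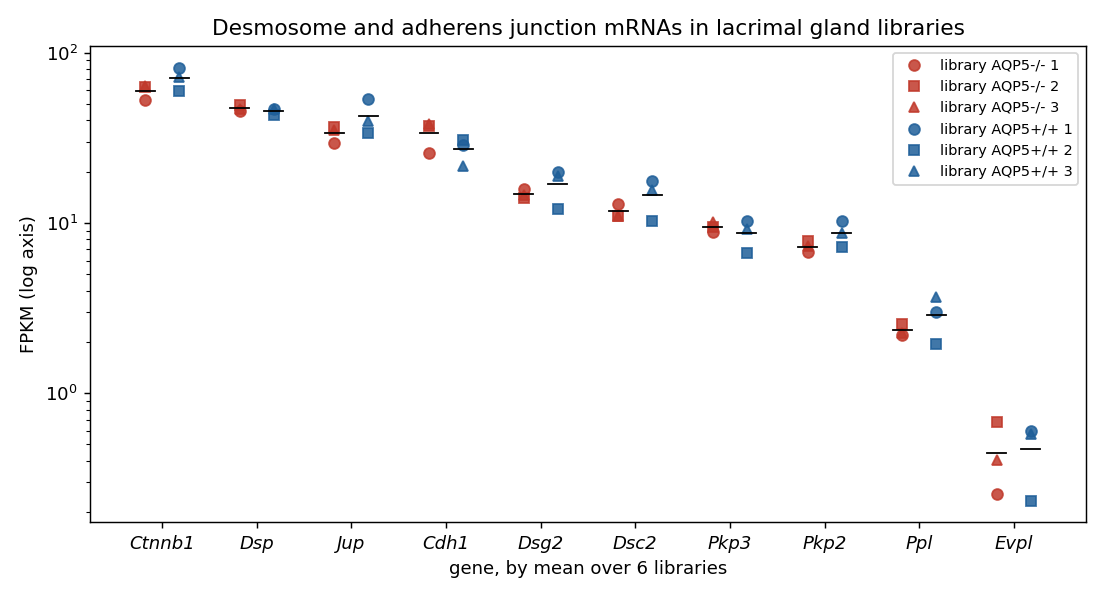
FPKM of the 10 junction mRNAs in each library on a log axis, with AQP5-/- libraries in red, AQP5+/+ libraries in blue, the replicate number as the symbol and the mean of each genotype as a bar. The genotypes overlap for all 10 genes, and the AQP5+/+ square (replicate 2) lies below the other AQP5+/+ libraries for 9 of them, the exception being Cdh1.

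In the main comparison 0 of the 9 junction mRNAs tested passed any threshold, which does not show that the genotypes were equal. FPKM were compared with limma on log2(FPKM + 0.5), for the 11772 genes with a mean of at least 0.5 FPKM, and 9 of the 10 genes entered, all but Evpl. At an unadjusted p under 0.05, 0 of 9 passed, where 11.4% of all tested genes did. At an adjusted p (Benjamini-Hochberg) under 0.05, 0 of 9 passed, where 0.0170% of all genes did, that is 2 genes. The unadjusted p of the 9 lay between 0.147 and 0.648, and the adjusted p between 0.497 and 0.845. At a fold change of at least 2 with an unadjusted p under 0.05, the threshold of the study, 0 of 9 passed and 2.04% of all genes did. The genotypes did not overlap for 0 of the 10 genes, against 14.9% of the tested genes. The log2 fold change was below 0 for 6 of 9, against 67.0% of all genes, and its median was -0.22 over the 9 and -0.12 over all tested genes. When each library was centred on its own median, these medians were -0.08 and 0.01, and the same 6 genes (Ctnnb1, Dsc2, Dsg2, Jup, Pkp2 and Ppl) lay below 0. With that centring 56.4% of all mRNAs with a p under 0.05 were higher in AQP5-/- glands, against 28.7% without it.

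The desmosomal cadherins Dsg2 and Dsc2 lie on chromosome 18 and carried the same library pattern. Dsg2, encoding desmoglein 2, the desmoglein of simple epithelia, had 15.8, 14.1 and 14.6 FPKM in the AQP5-/- libraries, against 20.0, 12.1 and 18.8 FPKM in the AQP5+/+ libraries. Its mean was 14.8 ± 0.909 FPKM in AQP5-/- and 16.9 ± 4.25 FPKM in AQP5+/+ glands (SD, n = 3 each), a log2 fold change of -0.15 (95% interval -0.61 to 0.30, adjusted p = 0.730). Dsc2, encoding its partner desmocollin 2, had 13.0, 11.0 and 11.0 FPKM in the AQP5-/- libraries, against 17.6, 10.2 and 15.6 FPKM in the AQP5+/+ libraries. For both genes AQP5+/+ replicates 1 and 3 were the highest of the 6 libraries and AQP5+/+ replicate 2 the lowest, and the spread within AQP5+/+ exceeded that within AQP5-/-. The log2 fold change of Dsc2 was -0.27 (95% interval -0.75 to 0.21, adjusted p = 0.570). In the mRNA table the Dsg2 locus (mm10, chr18:20558074-20674324, plus strand) spans 116.3 kb and takes in Ttr, whereas the RefSeq gene spans 46.5 kb. Dsc2 (chr18:20030633-20059554, minus strand) had the same span in both.

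Among the armadillo proteins of the plaque, Jup had 29.4, 36.5 and 35.2 FPKM in the AQP5-/- libraries, against 53.3, 33.6 and 39.8 FPKM in the AQP5+/+ libraries. AQP5+/+ replicate 1 stood highest, and AQP5+/+ replicate 2 fell inside the AQP5-/- range. The mean was 33.7 ± 3.79 FPKM in AQP5-/- and 42.2 ± 10.05 FPKM in AQP5+/+ glands (SD, n = 3 each), with a log2 fold change of -0.30 (95% interval -0.74 to 0.13, adjusted p = 0.497). Pkp2, encoding plakophilin 2, which recruits desmoplakin to the plaque, had 6.71, 7.78 and 7.29 FPKM in the AQP5-/- libraries, against 10.2, 7.24 and 8.68 FPKM in the AQP5+/+ libraries. It showed the pattern of Jup, with a log2 fold change of -0.24 (95% interval -0.61 to 0.14, adjusted p = 0.531). Pkp3, encoding plakophilin 3, had 8.79, 9.46 and 10.1 FPKM in the AQP5-/- libraries, against 10.2, 6.68 and 9.23 FPKM in the AQP5+/+ libraries. Here the lowest and the highest library were both AQP5+/+, and the log2 fold change was 0.13 (95% interval -0.28 to 0.55, adjusted p = 0.747). Jup lies at chr11:100368958-100397763 (minus strand), Pkp2 at chr16:16213318-16272712 and Pkp3 at chr7:141078218-141090510 (both plus strand).

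The plakins differed in how steady they were. Dsp had 45.6, 49.1 and 46.6 FPKM in the AQP5-/- libraries, against 46.5, 43.2 and 46.4 FPKM in the AQP5+/+ libraries. Its highest library was 1.14 times its lowest, the narrowest range of the 10 genes, and its log2 fold change was 0.05 (95% interval -0.21 to 0.32, adjusted p = 0.845). Ppl, encoding periplakin, which binds intermediate filaments, had 2.21, 2.54 and 2.26 FPKM in the AQP5-/- libraries, against 2.98, 1.94 and 3.69 FPKM in the AQP5+/+ libraries. Both ends of its range were AQP5+/+ libraries, and its log2 fold change was -0.22 (95% interval -0.76 to 0.33, adjusted p = 0.679). Evpl, encoding envoplakin, the partner of periplakin in the cornified envelope of skin, had 0.255, 0.674 and 0.407 FPKM in the AQP5-/- libraries, against 0.601, 0.234 and 0.575 FPKM in the AQP5+/+ libraries. It was under the minimum for the test, and its level varied as much within each genotype as between them. Dsp lies at chr13:38151328-38198577 (plus strand), Ppl at chr16:5086291-5132481 and Evpl at chr11:116220559-116238077 (both minus strand).

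In the adherens junction, Cdh1 and Ctnnb1 had log2 fold changes of opposite sign. Cdh1 had 25.8, 37.0 and 38.2 FPKM in the AQP5-/- libraries, against 28.8, 30.6 and 21.5 FPKM in the AQP5+/+ libraries. AQP5-/- replicates 2 and 3 were above the AQP5+/+ libraries and AQP5-/- replicate 1 among them. The mean was 33.7 ± 6.86 FPKM in AQP5-/- and 27.0 ± 4.83 FPKM in AQP5+/+ glands (SD, n = 3 each), with a log2 fold change of 0.31 (95% interval -0.15 to 0.78, adjusted p = 0.507). With each library left out it lay between 0.16 (without AQP5+/+ replicate 3) and 0.49 (without AQP5-/- replicate 1). Without AQP5-/- replicate 1 it passed an unadjusted p under 0.05 (adjusted p = 0.632), as 7.20% of all genes did. DESeq2 on the estimated fragments of all 6 libraries gave 0.44, which also passed unadjusted (adjusted p = 0.367), as 9.59% of all genes did, and no other junction gene passed in either fit. Ctnnb1 had 52.6, 62.8 and 64.0 FPKM in the AQP5-/- libraries, against 81.7, 59.9 and 72.4 FPKM in the AQP5+/+ libraries. AQP5+/+ replicates 1 and 3 were again highest and AQP5+/+ replicate 2 within the AQP5-/- range, with a log2 fold change of -0.25 (95% interval -0.61 to 0.12, adjusted p = 0.504). Cdh1 lies at chr8:106603351-106670246 and Ctnnb1 at chr9:120924455-121277197 (both plus strand). That locus of Ctnnb1 spans 352.7 kb and takes in the neighbouring Ulk4, whereas the RefSeq gene spans 27.1 kb.

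Promoter sequences of RefSeq (GRCm38.p6, the assembly also called mm10), running from 250 bases before to 50 bases after the start of transcription, were at hand for 3 of the 10 genes. They are shown because these 3 were the ones at hand. The mRNAs of Ctnnb1 and Jup had the same library pattern, shared by 35.6% of all tested genes, and that of Dsp was steady. Capitals mark the GC box GGGCGG, the E-box CAGGTG and the TATA box TATAAA, each searched on both strands.
Ctnnb1, chr9:120933150-120933449, plus strand: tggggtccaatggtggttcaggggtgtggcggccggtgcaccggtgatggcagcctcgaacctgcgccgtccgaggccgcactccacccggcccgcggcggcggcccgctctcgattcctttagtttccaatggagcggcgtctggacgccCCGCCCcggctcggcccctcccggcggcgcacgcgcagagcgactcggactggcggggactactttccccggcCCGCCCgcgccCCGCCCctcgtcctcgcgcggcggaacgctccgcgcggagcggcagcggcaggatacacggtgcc
Jup, chr11:100397741-100398040, minus strand: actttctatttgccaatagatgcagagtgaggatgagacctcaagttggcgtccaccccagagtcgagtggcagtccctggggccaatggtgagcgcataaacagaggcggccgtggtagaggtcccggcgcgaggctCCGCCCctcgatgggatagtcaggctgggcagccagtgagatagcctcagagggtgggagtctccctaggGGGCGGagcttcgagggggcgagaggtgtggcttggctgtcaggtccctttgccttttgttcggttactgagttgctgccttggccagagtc
Dsp, chr13:38151044-38151343, plus strand: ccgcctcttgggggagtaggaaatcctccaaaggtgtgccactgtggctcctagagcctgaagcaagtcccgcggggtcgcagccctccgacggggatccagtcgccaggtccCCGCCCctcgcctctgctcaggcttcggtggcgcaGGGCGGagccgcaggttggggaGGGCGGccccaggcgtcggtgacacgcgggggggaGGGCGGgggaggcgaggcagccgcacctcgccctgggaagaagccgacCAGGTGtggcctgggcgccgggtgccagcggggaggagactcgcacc
The GC box was found 3 times in this promoter of Ctnnb1, 2 times in that of Jup and 4 times in that of Dsp, and 35.7% of all 32851 promoters in the table hold at least 1. The E-box, the letters bound by Snail and Zeb repressors and by other factors, was found once in Dsp and in neither of the others, against 20.2% of all promoters. AACCGGTT, the site of grainyhead factors, was in none of them, against 0.146% of all promoters. The TATA box was in none of these 3 windows, but the other Ctnnb1 start in the table, for which the window begins at 120933328, held 1, against 13.6% of all promoters. The G and C content was 75.3% for Ctnnb1, 60.7% for Jup and 73.0% for Dsp, with a median of 52.7% over all promoters. Ctnnb1 and Jup differed from Dsp in the E-box and the number of GC boxes. With 3 genes this cannot be related to the library pattern, and a match of letters is not evidence of a bound site.

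Most of these mRNAs shared 1 order of libraries. AQP5+/+ replicates 1 and 3, which had next to no Y-linked mRNA, both exceeded all 4 other libraries for Dsg2, Dsc2, Jup, Pkp2, Ppl and Ctnnb1. The same order held for 35.6% of all tested genes. Averaged over the 10 genes, the log2 level centred per gene was -0.16, 0.03 and -0.02 in the AQP5-/- libraries, against 0.25, -0.22 and 0.11 in the AQP5+/+ libraries. AQP5+/+ replicate 2 was thus the lowest of all 6 libraries, and the lowest library for Dsp, Dsg2, Dsc2, Pkp3, Ppl and Evpl. Cdh1 departed from this profile, with AQP5+/+ replicate 3 as its lowest library. The 10 genes together summed to 200, 231 and 230 FPKM in the AQP5-/- libraries, against 272, 206 and 237 FPKM in the AQP5+/+ libraries. In such bulk RNA, fewer cells of a type and less RNA per cell cannot be told apart.

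**Figure D2:**
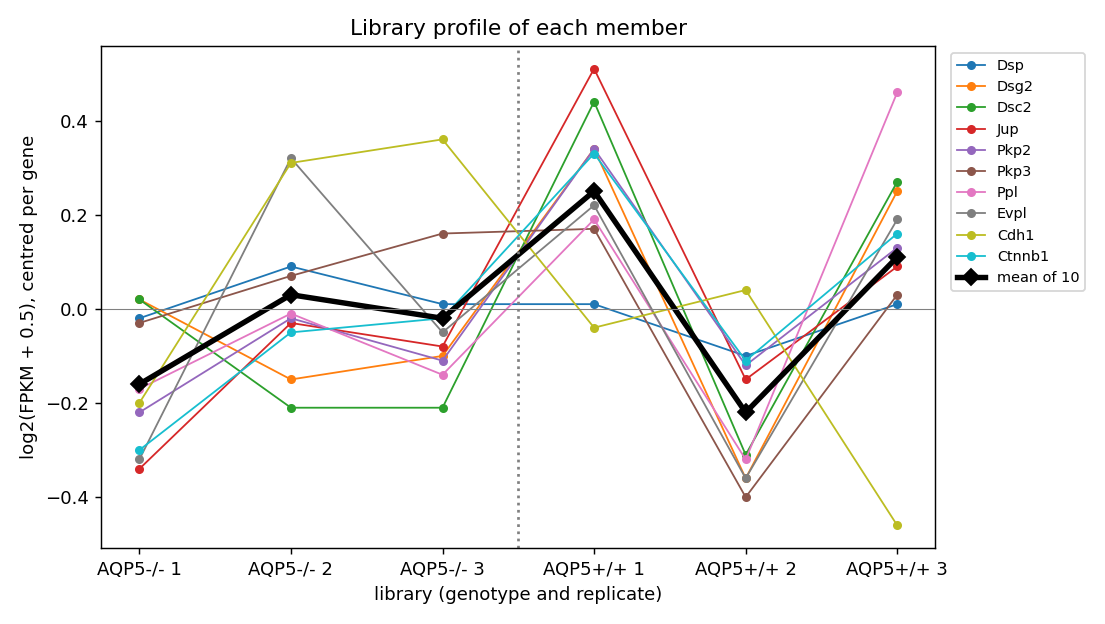
Level of each junction mRNA in the 6 libraries, as log2(FPKM + 0.5) centred on the mean of the gene, with the mean of the 10 genes as the thick line. AQP5+/+ replicate 2 dips to -0.22 on that line between AQP5+/+ replicates 1 and 3 at 0.25 and 0.11, while the 3 AQP5-/- libraries lie between -0.16 and 0.03.

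The size of the difference depended on which AQP5+/+ library was in the comparison. The median log2 fold change of the junction genes tested, which was -0.22 with all 6 libraries, came to -0.11 when AQP5+/+ replicate 1 was left out, to -0.36 when replicate 2 was and to -0.07 when replicate 3 was. Without AQP5+/+ replicate 1 the value was -0.12 for Jup, -0.14 for Ctnnb1, -0.12 for Pkp2, -0.11 for Dsc2 and -0.02 for Dsg2, and 0 of 9 genes had an unadjusted p under 0.05. Without AQP5+/+ replicate 3 it was -0.07 for Dsg2, and again 0 of 9 had such a p. Without AQP5+/+ replicate 2, 5 of 10 junction genes had an unadjusted p under 0.05, all lower in AQP5-/- glands, where 22.6% of all tested genes did so in that direction. They were Dsc2 (log2 fold change -0.49, adjusted p = 0.0789), Dsg2 (-0.37, adjusted p = 0.107), Jup (-0.45, adjusted p = 0.137), Ctnnb1 (-0.37, adjusted p = 0.139) and Pkp2 (-0.35, adjusted p = 0.171), so 0 of 10 passed after adjustment. Dsp (0.02), Pkp3 (-0.04), Ppl (-0.43), Evpl (-0.23) and Cdh1 (0.41) did not reach a p under 0.05. Without AQP5+/+ replicate 2 every AQP5-/- library holds Y-linked mRNA and neither AQP5+/+ library does, so that genotype and Y-linked mRNA cannot be told apart in that comparison.

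A fit with a Y-linked mRNA term compares the 3 AQP5-/- libraries with AQP5+/+ replicate 2 alone. In it the log2 fold change was -0.00215 for Jup (95% interval -0.50 to 0.50), -0.01 for Ctnnb1 (-0.42 to 0.40) and 0.00139 for Pkp2 (-0.44 to 0.44). It was above 0 for Dsg2 (0.29), Dsc2 (0.18) and Ppl (0.21), and 0.12 for both Dsp and Cdh1. Pkp3 alone had an unadjusted p under 0.05, with a log2 fold change of 0.47 (adjusted p = 1), where 2.96% of all genes did. This fit rests on the single library that also held skeletal muscle mRNA, and the libraries without Y-linked mRNA are of 1 genotype only and give no value of their own. The part of the muscle mRNA in these values was not tested. For Pkp3 that library also had the highest scaled count behind 1 FPKM, 36.0, against 19.9, 32.5 and 22.6 in the AQP5-/- libraries. On the estimated fragments of all 6 libraries, without the Y-linked mRNA term, edgeR gave 0.03 for Pkp3 and DESeq2 gave 0.02. How far the varying count per FPKM entered the 0.47 of Pkp3 was not tested.

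**Figure D3:**
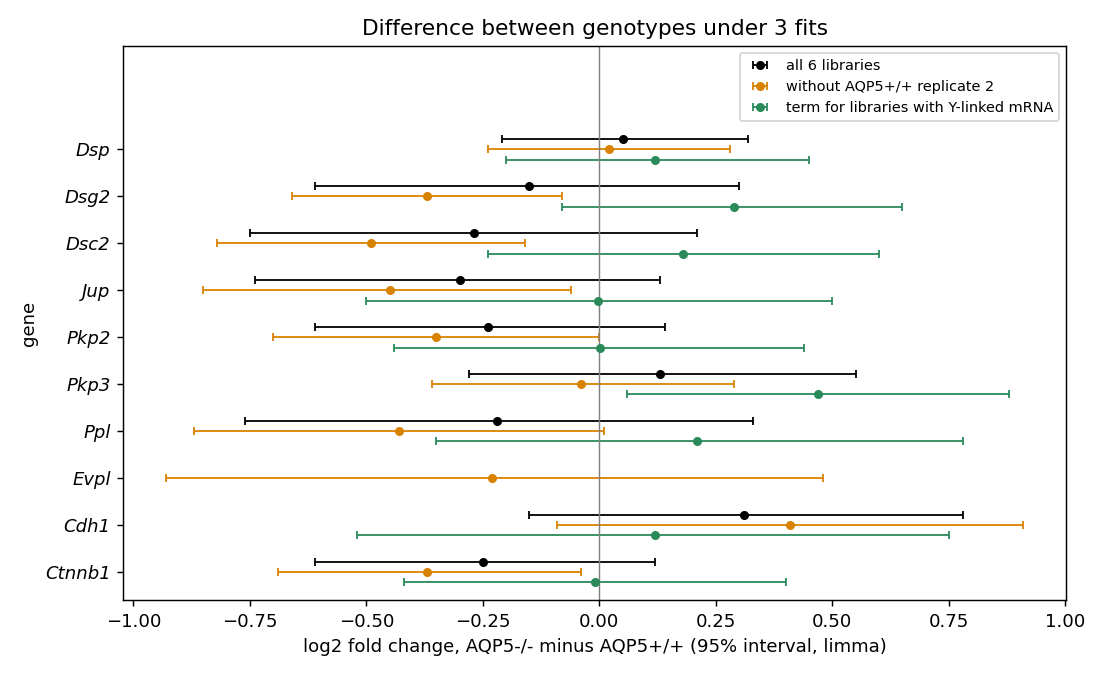
Log2 fold change of AQP5-/- over AQP5+/+ with its 95% interval from limma, for all 6 libraries (black), without AQP5+/+ replicate 2 (orange) and with the Y-linked mRNA term (green). The value of Jup is -0.30, -0.45 and -0.00215 in these 3 fits, and Evpl entered the test only in the fit without AQP5+/+ replicate 2.

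Ratios of related members within a library, which do not depend on how the library was scaled, were compared with a two-sided exact permutation test, for which 3 libraries against 3 cannot give a p below 0.10. The ratio of Jup to Ctnnb1 was 0.558, 0.581 and 0.550 in the AQP5-/- libraries, against 0.652, 0.561 and 0.550 in the AQP5+/+ libraries. The armadillo pair thus kept nearly the same ratio in 5 of 6 libraries, and AQP5+/+ replicate 1 stood above them (difference in mean log2 ratio -0.06, exact p = 0.7, adjusted p = 0.8 over 5 ratios). The ratio of Dsg2 to Dsc2 was 1.22, 1.28 and 1.32 in the AQP5-/- libraries, against 1.13, 1.18 and 1.20 in the AQP5+/+ libraries. These did not overlap, and the difference of 0.12 had the smallest p possible (exact p = 0.1, adjusted p = 0.25). On the deposited counts the ratios overlapped, with a difference of 0.11 (exact p = 0.3).

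The ratio of Pkp2 to Pkp3 was 0.763, 0.822 and 0.722 in the AQP5-/- libraries, against 0.996, 1.08 and 0.941 in the AQP5+/+ libraries, and here too the genotypes did not overlap (difference -0.39, exact p = 0.1, adjusted p = 0.25). On the deposited counts, however, the ratios were 2.01, 1.33 and 1.67 in the AQP5-/- libraries, against 1.80, 1.57 and 1.97 in the AQP5+/+ libraries. They overlapped, and the difference was -0.11 (exact p = 0.7). The scaled count behind 1 FPKM of Pkp3 ranged from 19.9 in AQP5-/- replicate 1 to 36.0 in AQP5+/+ replicate 2, a factor of 1.81, and for the other 9 genes the highest exceeded the lowest by a factor of 1.14 at most. The part of this in the FPKM ratio was not tested further. The ratio of Ppl to Evpl ranged from 3.77 to 8.67 in the AQP5-/- libraries and from 4.96 to 8.31 in the AQP5+/+ libraries (difference -0.18, exact p = 0.8, adjusted p = 0.8). The ratio of Dsp to Cdh1 ranged from 1.22 to 1.77 in the AQP5-/- libraries and from 1.41 to 2.16 in the AQP5+/+ libraries (difference -0.26, exact p = 0.4, adjusted p = 0.667).

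Of the other desmosome genes, those of stratified epithelia were near 0. Dsg1c, Dsg3, Dsg4 and Dsc1 were at 0 in every library, and Dsg1a and Dsg1b did not exceed 0.0325 FPKM. Perp, a tetraspan membrane protein needed for desmosome assembly, was abundant, with 85.8, 83.7 and 93.8 FPKM in the AQP5-/- libraries, against 80.7, 82.8 and 102 FPKM in the AQP5+/+ libraries. Its genotypes overlapped, as did those of Dsc3, which had between 1.18 and 1.92 FPKM. Pkp4, an armadillo protein of cell junctions, had 10.5, 10.8 and 11.4 FPKM in the AQP5-/- libraries, against 17.7, 12.5 and 18.8 FPKM in the AQP5+/+ libraries. It was lower in all 3 AQP5-/- libraries than in any AQP5+/+ library, with a log2 fold change of -0.54 (adjusted p = 0.431). The genotypes did not overlap for 14.9% of all tested genes. Of the 3 tested genes of this list Pkp4 alone passed the unadjusted threshold, as 8.12% of all genes did in that direction. Without AQP5+/+ replicate 2 its value was -0.72 (adjusted p = 0.0179), in a fit where 933 of all 11787 genes passed after adjustment. With the Y-linked mRNA term it was -0.19.

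Among the other adherens junction genes, 3 of 15 tested were lower in AQP5-/- glands at an unadjusted p under 0.05 and 0 were higher, against 8.12% and 3.27% of all genes. Lmo7, which links nectin-based and E-cadherin adhesion to actin, had 23.3, 23.3 and 18.7 FPKM in the AQP5-/- libraries, against 51.3, 24.6 and 35.9 FPKM in the AQP5+/+ libraries (log2 fold change -0.71, adjusted p = 0.431). The genotypes did not overlap, as for 14.9% of all tested genes, although AQP5+/+ replicate 2 lay close to the AQP5-/- libraries. The others were Pvrl4, encoding nectin 4 (-0.51), and Epb4.1l5, a FERM domain protein (-0.68), each with an adjusted p of 0.431 and both named here after their values were seen. Both overlapped between the genotypes. With the Y-linked mRNA term the value was -0.18 for Lmo7, -0.31 for Pvrl4 and -0.13 for Epb4.1l5. Without AQP5+/+ replicate 2, 6 of the 15 were lower, against 22.6% of all genes. Of the 15, 2 passed after adjustment in that fit, as did 933 of all 11787 genes. The most abundant genes of the list were Mllt4, encoding the nectin-binding afadin, Ctnnd1, encoding the p120 catenin that stabilizes E-cadherin, Actn4, an actin crosslinker, and Lmo7. Mllt4 had 56.6, 49.2 and 44.6 FPKM in the AQP5-/- libraries, against 53.7, 51.2 and 66.8 FPKM in the AQP5+/+ libraries. Ctnnd1 (log2 fold change -0.16, adjusted p = 0.580), Mllt4 (-0.19, adjusted p = 0.595) and Actn4 (-0.24, adjusted p = 0.490) did not pass.

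The keratins to which desmosomes attach were mainly those of simple epithelium. Krt8 had 106, 101 and 118 FPKM in the AQP5-/- libraries, against 75.6, 89.1 and 78.0 FPKM in the AQP5+/+ libraries. Every AQP5-/- library was above every AQP5+/+ library, where 14.9% of all tested genes did not overlap. The log2 fold change of Krt8 was 0.42 (adjusted p = 0.431). Its obligate partner Krt18 had 196, 165 and 203 FPKM in the AQP5-/- libraries, against 259, 174 and 281 FPKM in the AQP5+/+ libraries (log2 fold change -0.31, adjusted p = 0.518). Krt8 has a processed pseudogene, and whether its reads were divided between copies was not tested. Of the 6 tested keratins Krt8 alone passed the unadjusted threshold, as 3.27% of all genes did in that direction. With the Y-linked mRNA term its log2 fold change was 0.28.

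Genes that regulate epithelial junctions were read in the same fit. Of 9 tested activators 3 were lower in AQP5-/- glands and 0 higher, against 8.12% and 3.27% of all genes, with a median log2 fold change of -0.38 over the list against -0.12 over all genes. They were Esrp2 (-0.75) and Esrp1 (-0.38), both splicing factors of epithelial cells, and Grhl1 (-0.38), a grainyhead factor that binds the promoters of desmosomal cadherins, each with an adjusted p of 0.431. Without AQP5+/+ replicate 2, 6 were lower, against 22.6% of all genes, and 4 passed after adjustment, as did 933 of all 11787 genes. With the Y-linked mRNA term the median was 0.02 over the list and 0.02 over all genes. Esrp2 had 15.0, 20.8 and 15.8 FPKM in the AQP5-/- libraries, against 36.7, 17.0 and 38.4 FPKM in the AQP5+/+ libraries. It overlapped between the genotypes, with AQP5+/+ replicate 2 among the AQP5-/- libraries. Ehf, the most abundant activator, had a log2 fold change of -0.15 (adjusted p = 0.704). Of 3 tested repressors 0 passed in the limma fit. Zeb2, the most abundant of them and a repressor of Cdh1, had 5.97, 12.8 and 12.3 FPKM in the AQP5-/- libraries, against 6.96, 6.51 and 7.77 FPKM in the AQP5+/+ libraries (log2 fold change 0.45, adjusted p = 0.495). DESeq2 on the estimated fragments gave 0.71 for Zeb2, which passed after adjustment (adjusted p = 0.0473), and edgeR gave 0.72, which did not (adjusted p = 0.395). With each library left out the limma value lay between 0.27 (without AQP5-/- replicate 2) and 0.79 (without AQP5-/- replicate 1, adjusted p = 0.632), and it was 0.29 without AQP5-/- replicate 3. Its low AQP5-/- library, replicate 1, was also the AQP5-/- library with the least Cdh1. That library also had the lowest sums of fibroblast (73.0 FPKM) and macrophage markers (106 FPKM) of the AQP5-/- libraries. Its sum of lymphocyte markers was their highest (1300 FPKM). A relation between Zeb2 and Cdh1 was not tested.

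Among junction proteases and their inhibitors 2 of 6 tested were lower and 0 higher, against 8.12% and 3.27% of all genes. Without AQP5+/+ replicate 2, 3 were lower, against 22.6% of all genes. Of these 2, Prss8 and Spint1, passed after adjustment, as did 933 of all 11787 genes. Prss8, the membrane protease prostasin, had 21.7, 18.8 and 20.4 FPKM in the AQP5-/- libraries, against 33.6, 22.8 and 30.6 FPKM in the AQP5+/+ libraries (log2 fold change -0.49, adjusted p = 0.431). Spint1, an inhibitor of matriptase, had 4.59, 7.28 and 5.84 FPKM in the AQP5-/- libraries, against 14.0, 9.09 and 12.8 FPKM in the AQP5+/+ libraries, and was named after its values were seen. Both genes were lower in every AQP5-/- library than in any AQP5+/+ library, where 14.9% of all tested genes did not overlap. Spint1 had a log2 fold change of -0.96 (adjusted p = 0.431). With the Y-linked mRNA term the value was -0.17 for Prss8 and -0.6 for Spint1. Spint1 passed after adjustment with DESeq2 on all 6 libraries (-0.77, adjusted p = 0.0296) and without AQP5+/+ replicate 2 (-1.14, adjusted p = 0.0195), but not with edgeR (-0.76, adjusted p = 0.395). Spint2, a related inhibitor and the most abundant gene of the list, did not pass (-0.27, adjusted p = 0.513). Of 8 tested genes of the complex that degrades beta-catenin 0 passed, against 11.4% of all genes. Without AQP5+/+ replicate 2, 2 of them were lower, against 22.6% of all genes. Of 6 tested Wnt target genes 0 were lower and 1 was higher, against 8.12% and 3.27% of all genes. Without AQP5+/+ replicate 2, 2 were lower, against 22.6% of all genes, and 1 was higher, as were 707 of all 11787 genes. The gene that was higher with all 6 libraries was Ccnd1, encoding cyclin D1 (0.44, adjusted p = 0.431), with 29.0, 32.4 and 28.0 FPKM in the AQP5-/- libraries, against 24.7, 25.3 and 16.4 FPKM in the AQP5+/+ libraries.

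Over the 9 lists together, 62 of 88 genes were tested, 9 were lower (14.5%, against 8.12% of all genes) and 2 higher (3.23%, against 3.27%), and 0 passed after adjustment. Their median log2 fold change was -0.16, against -0.12 over all genes. Without AQP5+/+ replicate 2, 22 were lower (35.5%, against 22.6% of all genes) and 2 higher, and 11 of the 62 passed after adjustment, as did 933 of all 11787 genes. With the term for Y-linked mRNA, 1 was lower and 1 higher. The shares are descriptions of lists of related genes and carry no test. Beside these genes, 5 macrophage markers summed to 106, 158 and 222 FPKM in the AQP5-/- libraries, against 58.1, 68.4 and 105 FPKM in the AQP5+/+ libraries. The sebaceous or Harderian gland markers, led by Scd1, summed to 188, 216 and 225 FPKM in the AQP5-/- libraries, against 71.3, 216 and 36.4 FPKM in the AQP5+/+ libraries. In that sum AQP5+/+ replicate 2 stood with the AQP5-/- libraries. Of the 6 genes of this list 2 were tested, and 1 of these had a log2 fold change below 0. In the mean profile of the junction genes AQP5+/+ replicate 2 (-0.22) lay below the AQP5-/- libraries (-0.16 to 0.03). The part of either marker list in the junction values was not tested.

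**Figure D4:**
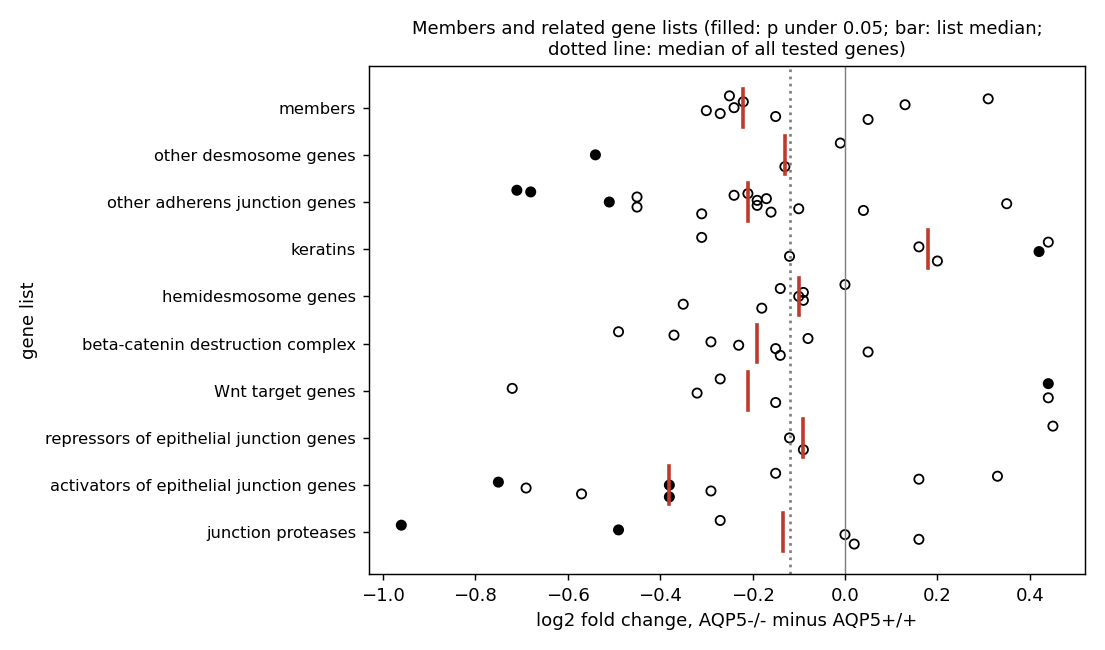
Log2 fold change of AQP5-/- over AQP5+/+ for each tested gene of the junction members and 9 related lists, filled where the unadjusted p was under 0.05, with the list median as a red bar and the median of all tested genes (-0.12) as a dotted line. No member is filled, and 11 genes of the lists are, 9 of them left of 0.

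Circular RNAs (circRNAs), closed loops read across a back-splice junction, were counted in the same libraries. Of 2541 circRNAs, 1 came from a junction gene, the exonic circRNA of Ppl (chr16:5097645-5102678, minus strand, predicted length 996 nt). It had 2 junction reads in AQP5-/- replicate 1 and 0 in the other 5 libraries. A count of 0 allows up to 3 reads, so that a difference was not detectable at this depth, and it did not enter the comparison of the 552 circRNAs with reads in at least 3 libraries.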

How the data were processed

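The sample labels gave 3 AQP5-/- and 3 AQP5+/+ libraries of lacrimal gland RNA. The members and gene lists were chosen with earlier results of these data known. The authors deposited FPKM per gene and library. Their processing notes list HISAT2 2.0.4, Cuffdiff 2.2.1 and Cufflinks, with the mm10 build. The estimated counts deposited by the authors are scaled by 1 factor per library. They were divided by that step, which gave whole numbers (within 0.02) for 93.5% to 94.4% of values up to 40, and rounded to whole fragments. The circRNA counts deposited by the authors are raw junction reads (cutadapt 1.9.3, STAR 2.5.1b). Their columns of values on a log2 scale normalized with edgeR 3.16.5 were not used. The sources used here give no strand setting for the mRNA values, so overlapping genes are uncertain. Start positions were converted to count from 1.

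FPKM were compared with limma 3.58.1 (lmFit, eBayes with trend, two-sided) in R 4.3.3 after adding 0.5 and taking log2. Genes entered with a mean FPKM of 0.5 or more, with Benjamini-Hochberg adjustment over all tested genes. This scale understates the change of low genes. Fragments were compared with edgeR 4.0.16 and DESeq2 1.42.0 as alternatives, and circRNA counts with edgeR's quasi-likelihood test. Within-library ratios were compared with SciPy 1.17.1. Libraries with at least 1 FPKM summed over 4 Y-linked genes were taken to hold Y-linked mRNA. Fits were tested on simulated data. Named were the 10 members, Aqp5, in each list up to 4 genes of highest mean FPKM and any past the threshold of the study, and the 5 genes closest to the members in library profile. Other genes were chosen after their values were seen. Of the list genes, 1 is not reported here and was left out of the counts, 1 was not matched, and 6 were matched by older symbols. Alternatives covered pseudocount, filter, scaling, test, leaving out single libraries, a replicate block and a Y-linked mRNA term.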

Additional observations from a re-analysis of the deposited data

How the results depend on the processing

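Of the 450 values of 30 single genes under 15 alternatives, 418 kept their direction and their side of an adjusted p of 0.05, 22 changed sign and 10 came to pass the threshold. With the term for Y-linked mRNA the log2 fold change turned to 0.29 for Dsg2, 0.18 for Dsc2, 0.00139 for Pkp2, 0.21 for Ppl, 0.08 for Perp, 0.10 for Dsc3, 0.10 for Krt18, 0.18 for Ehf, 0.000166 for Esrp2 and 0.02 for Spint2. Median centring gave 0.13 for Perp and 0.01 for Dsc3, and quantile normalization 0.01 for Perp. EdgeR gave 0.13 for Perp and 0.06 for Ehf, and DESeq2 0.13 and 0.05. With each library left out, Pkp3 lay between -0.04 (without AQP5+/+ replicate 2) and 0.25, Dsc3 between -0.25 and 0.02 (without AQP5+/+ replicate 3), and Perp between -0.07 and 0.10.

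The number of junction genes with a p under 0.05, which was 0, was 1 with DESeq2 and 1 with the Y-linked term, and 0 to 5 with each library left out. No junction gene reached an adjusted p under 0.05 in any of these 15 alternatives. The mRNAs past the study's threshold numbered 136 higher and 104 lower. The higher were 90 with no filter, 240 with DESeq2, 59 with the Y-linked term and 43 to 282 with each library left out. The lower were 168 at a pseudocount of 0.1, 58 with median centring, 170 with edgeR, 232 with DESeq2, 45 with the Y-linked term and 40 to 382 with each library left out. The cause of these shifts was not tested. The difference in log2 ratio lay between -0.10 and 0.02 for Jup over Ctnnb1 (0.02 without AQP5+/+ replicate 1), between -0.44 and -0.33 for Pkp2 over Pkp3, between -0.49 and 0.11 for Ppl over Evpl (0.11 without AQP5-/- replicate 2, 0.01 without AQP5+/+ replicate 2), between 0.09 and 0.15 for Dsg2 over Dsc2 and between -0.42 and -0.09 for Dsp over Cdh1 with each library left out. With no filter 1 circRNA of the junction genes entered the test.

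Libraries of the same replicate number did not deviate together (correlations of -0.14, -0.18 and -0.15), so that the numbers were not taken to pair them. With the replicate block 157 mRNAs were higher and 129 lower past the study's threshold, and 0 junction genes had a p under 0.05. The block was not fitted for the circRNA of Ppl, which did not enter the test.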

Other observations

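The 5 genes whose library profile lay closest to the mean profile of the 10 junction genes, among 6251 others with a mean of at least 5 FPKM, were Uhmk1, Atp2b1, Lcor, Hnrnpa2b1 and Cct8. Their mean absolute difference from it ran from 0.0211 to 0.0278 in log2 units over the 6 libraries. Uhmk1 encodes a kinase, Atp2b1 a plasma membrane calcium pump, Lcor a nuclear receptor corepressor, Hnrnpa2b1 an RNA-binding protein and Cct8 a chaperonin subunit. Hnrnpa2b1 had 91.1, 106 and 96.8 FPKM in the AQP5-/- libraries, against 118, 83.8 and 106 FPKM in the AQP5+/+ libraries. Atp2b1 had 10.9, 12.5 and 12.4 FPKM in the AQP5-/- libraries, against 14.6, 10.7 and 13.9 FPKM in the AQP5+/+ libraries. In both, AQP5+/+ replicate 1 was the highest library and AQP5+/+ replicate 2 the lowest.

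Ctnnb1 made up 26.3%, 27.2% and 27.8% of the summed FPKM of the 10 genes in the AQP5-/- libraries, against 30.0%, 29.1% and 30.6% in the AQP5+/+ libraries, and the genotypes did not overlap. Cdh1 made up 12.9%, 16.0% and 16.6% in the AQP5-/- libraries, against 10.6%, 14.9% and 9.08% in the AQP5+/+ libraries, and these overlapped. The shares of Jup and Pkp2 (lower in AQP5-/- libraries) and of Pkp3 (higher) did not overlap either, and those of the remaining genes did. In FPKM the genotypes overlapped for each of the 10 genes, and they did not overlap for 14.9% of all tested genes. No such background was at hand for shares. Shares of the same sum depend on one another, so these are not separate observations. The share of Pkp3 also rests on FPKM for which the scaled count per FPKM varied by a factor of 1.81 between libraries. All these shares were noticed in the data and were not tested.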
